A study of Mus musculus with 4 samples.

Results

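Conventional type 2 dendritic cells (cDC2s) made up 1088 of the 33368 CD45+ cells that were analysed from 4 samples of mouse melanoma. They were the cells that carried the name cDC2 in the study's own annotation, which rested on clusters of the transcriptome, and no other criterion was applied. NTT held 282 of them, RTT 174, RTT_ROSA26 288 and RTT_PTGS12KO 344. Dendritic cells take up antigen, display its peptides on major histocompatibility complex (MHC) molecules and activate T cells. The cDC2 lineage mainly primes CD4 T cells through MHC class II, and in inflamed tissue it can take on an interferon-driven state, called inflammatory cDC2, that shares features with cDC1s and with monocytes. Prostaglandin E2, whose synthesis cyclooxygenases initiate, is known to restrain inflammatory activity in dendritic cells and macrophages.

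The study asked which tumour environments let transferred T cells act, and how cyclooxygenase activity of the tumour cells bears on this. All 4 tumour samples grew from YUMM1.7OVA, a mouse melanoma line with Braf V600E and without Cdkn2a that expresses ovalbumin, in Rag2-/- mice. Every mouse had received OT-1 T cells, which recognise ovalbumin, on day 7, and the tumours were taken on day 10, 72 h after the transfer. NTT came from the therapy-naive line Y1.7_NTT_3A6 and RTT from the resistant line Y1.7_RTT_2B12. The study obtained its resistant models by treating naive cells with inhibitors of BRAF, or of BRAF and MEK, until resistance arose. The words naive and resistant refer to these drugs here. In culture it kept BRAF-inhibitor-resistant cells and their engineered derivatives in dabrafenib, a BRAF inhibitor. RTT_ROSA26 came from resistant cells that carry a control guide against the Rosa26 locus, and RTT_PTGS12KO from resistant cells without Ptgs1 and Ptgs2, the genes of both cyclooxygenases. The hosts lacked T and B cells of their own, so the T cells in these tumours were transferred ones. The genes were removed in the tumour cells and not in the host, so the level of Ptgs1 or Ptgs2 in cDC2s is no check of the knockout. Each condition has 1 sample, which the labels describe as 1 tumour while the study's text speaks of tumours pooled for such samples, so there were no replicates, the spread between tumours was not measured and no statistical test was possible. Every interval below is a 95% interval for counting error only, and cells of 1 sample were not treated as replicates. Where the text below says tumour for one of the conditions, it means that sample, whether of 1 tumour or of several.

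RTT_PTGS12KO was compared with RTT_ROSA26 for the knockout, and NTT with RTT for naive against resistant tumours. RTT_ROSA26 against RTT, a pair of resistant tumours with intact cyclooxygenase genes, served as a yardstick of how far samples differ when neither resistance nor cyclooxygenase is changed, although editing with a guide is. The yardstick shares RTT with the naive comparison and RTT_ROSA26 with the knockout comparison. Counts of unique molecular identifiers (UMIs, 1 per captured RNA molecule) were summed over the cDC2s of each tumour and given as CPM, each gene's count scaled to the same total in every tumour. CPM is not divided by gene length, so levels are compared between tumours and not between genes. The sums held 2346088 UMIs in NTT against 2128203 in RTT, and 3498346 in RTT_PTGS12KO against 2742103 in RTT_ROSA26. The median cDC2 held 7236 UMIs in NTT against 11325 in RTT, and 9169 in RTT_PTGS12KO against 8784.5 in RTT_ROSA26, so NTT was the shallowest. The tumours were labelled with oligonucleotide tags, pooled and loaded in 3 runs, and no cDC2 barcode occurred in more than 1 tumour (75 barcode sequences did so among all cells, each time from different loads).

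The name was checked against 6 markers of cDC2s, which were Cd209a, Clec10a, Flt3, Napsa, Klrb1b and Itgb7. Cd209a, a C-type lectin, was at 82.9 CPM over all cDC2s, 3.87 in cDC1s, 0.225 in the main monocyte class and 0.625 in macrophages. The small class that the study named Macro, which is not among these macrophages, held Cd209a as well, at 43.3 CPM. Clec10a, the lectin CD301, was higher in Macro (303 CPM) than in cDC2s (103 CPM). Flt3, the receptor that dendritic cell precursors depend on, reached 16.1 CPM in cDC2s against 92.8 in cDC1s and 53.8 in CCR7+ DCs, and was at 0.0748 CPM in monocytes and 0.237 in macrophages. Napsa, an aspartic protease, Klrb1b, a lectin-like receptor, and Itgb7, an integrin chain, were highest in cDC2s among the classes compared but were also counted in NK cells and monocytes. Cd209a and Flt3 were thus higher over all cDC2s than in the main monocyte class and the 5 macrophage classes summed, though Flt3 was low beside the other dendritic cells.

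**Figure D1:**
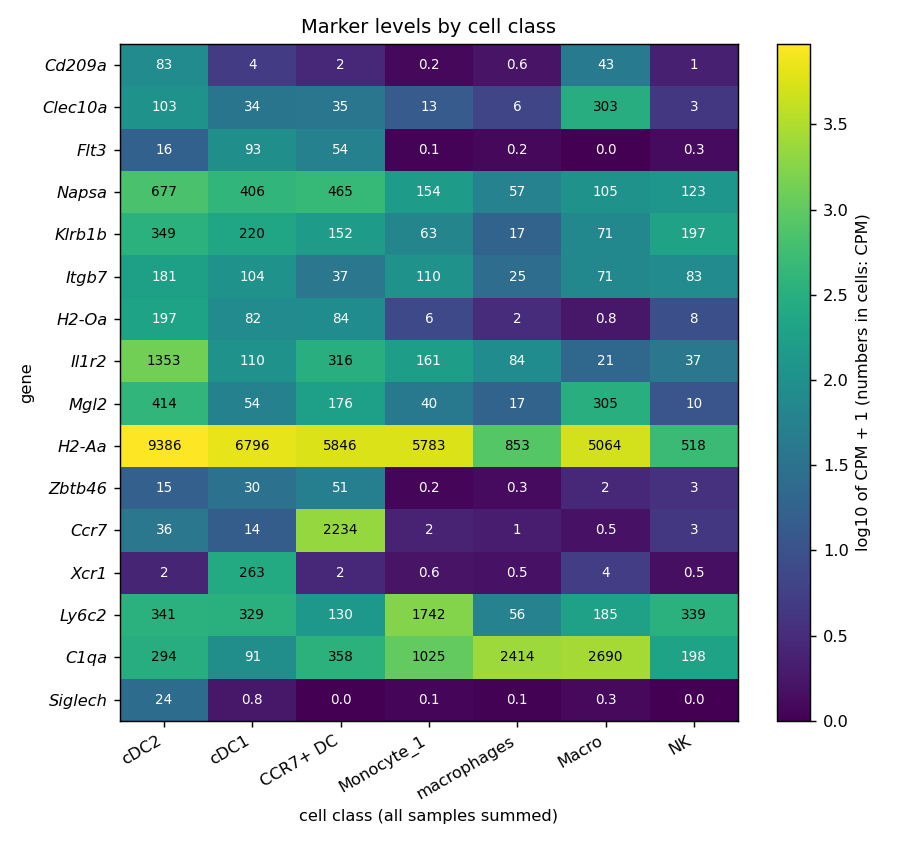
Levels of cDC2 markers and of genes that mark other cells, in CPM over all 4 tumours, for cDC2s and 6 other classes (colour: log10 of CPM + 1). Cd209a stands at 82.9 CPM in cDC2s and under 5 in every other class but Macro, and Siglech at 24.1 CPM in cDC2s and under 1 elsewhere.

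The 10 genes that set cDC2s furthest apart from all other cells in every tumour were H2-Oa, Plet1, Ramp3, H2-DMb2, P2ry10, Dcstamp, Il1r2, Mgl2, Ifitm1 and Klrb1b. H2-Oa and H2-DMb2 encode chains of the accessory molecules that load or restrain MHC class II, Il1r2 the decoy receptor for interleukin-1, and Mgl2 a galactose-binding lectin. None of the 10 is a marker of another class in the lists used here. H2-Oa was 173 CPM in NTT against 231 in RTT, and 157 in RTT_PTGS12KO against 244 in RTT_ROSA26, and Il1r2 was 1338 CPM in NTT against 1444 in RTT, and 1255 in RTT_PTGS12KO against 1421.5 in RTT_ROSA26. In single cells the markers were sparse. After each cell was thinned to 4000 UMIs, which left out 30 (NTT), 6 (RTT), 14 (RTT_ROSA26) and 12 (RTT_PTGS12KO) shallower cDC2s, a Cd209a UMI was seen in 12.3% (NTT), 8.93% (RTT), 19.3% (RTT_ROSA26) and 10.5% (RTT_PTGS12KO) of cDC2s. NK cells, which should lack Cd209a, had it in 0 of 939 cells, with an upper Clopper-Pearson bound of 0.392%. Without thinning the shares of cDC2s were 14.5% (NTT), 13.2% (RTT), 24.3% (RTT_ROSA26) and 16.3% (RTT_PTGS12KO), and that of NK cells 0.474%. For Il1r2 the thinned shares were 81.0% (NTT), 94% (RTT), 91.2% (RTT_ROSA26) and 84.9% (RTT_PTGS12KO), against 6.07% of NK cells. NK cells had a median depth of 9423.5 UMIs and cDC2s one of 8838.5. At least 2 of the 6 markers were seen in 1033 of the 1088 cDC2s, and at least 4 in 355 (32.6%). The same gate of 4 markers held 36 of 86 cDC1s and 1.28% of the main monocyte class.

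Some markers differed between the tumours. Cd209a was 87.8 CPM in NTT against 35.7 in RTT, and 78.0 in RTT_PTGS12KO against 121 in RTT_ROSA26, so RTT was lowest and the naive comparison gave a log2 ratio of 1.30 (95% counting interval 0.91 to 1.7). The yardstick gave 1.77 (1.40 to 2.14), which is larger, and load 3 alone turned the naive ratio to -0.38. Clec10a was 162 CPM in NTT against 34.8 in RTT, and 101 in RTT_PTGS12KO against 109 in RTT_ROSA26, again with RTT lowest. Its log2 ratios were 2.22 (1.85 to 2.60) for NTT against RTT, -0.10 (-0.33 to 0.12) for the knockout and 1.65 (1.28 to 2.04) for the yardstick. Klrb1b was highest in the knockout tumour, at 344 CPM in NTT against 318 in RTT, and 481 in RTT_PTGS12KO against 209 in RTT_ROSA26. Napsa was 826 CPM in NTT against 578 in RTT, and 666 in RTT_PTGS12KO against 639.7 in RTT_ROSA26. Itgb7 was 191 CPM in NTT against 178 in RTT, and 168 in RTT_PTGS12KO against 191 in RTT_ROSA26, and both stayed within 2-fold in every comparison. Flt3 was 11.1 CPM in NTT against 18.8 in RTT, and 10.6 in RTT_PTGS12KO against 25.2 in RTT_ROSA26, under the minimum level for a call that is given below.

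The class was not uniform. A set of 27 cells carried UMIs of at least 2 of 5 genes that mark plasmacytoid dendritic cells (pDCs), the main producers of type I interferon, namely Siglech, Ccr9, Klk1, Cox6a2 and Pacsin1. NTT held 14 of them, RTT 1, RTT_ROSA26 6 and RTT_PTGS12KO 6, or 4.96% (NTT), 0.575% (RTT), 2.08% (RTT_ROSA26) and 1.74% (RTT_PTGS12KO) of the cDC2s. As the choice of cells fixed, Siglech, a pDC surface lectin, stood at 1058 CPM in these cells and 0.859 in the other cDC2s. 98.2% of the UMIs of Cox6a2, also used in the choice, came from them. Of genes not used in it, Ly6d had all 451 UMIs in these cells. Genes that lead the cDC2 class were nearly absent there, with Il1r2 at 17 CPM against 1383 and Klrb1b at 8.50 against 357. The median share of UMIs in H2-Aa, H2-Ab1, H2-Eb1 and Cd74 was 0.296% in them and 3.19% in the rest. Without these cells 199 genes were called higher and 187 lower in NTT against RTT, and 224 and 70 in the knockout, against 196 and 179, and 222 and 70, with them.

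A further 211 cDC2s carried 10 or more UMIs of C1qa, C1qb and C1qc, the complement genes that macrophages make in quantity. They formed 14.5% of the cDC2s of NTT against 24.1% of RTT, and 20.6% of RTT_PTGS12KO against 19.8% of RTT_ROSA26, while 60.6% of all cDC2s had no such UMI or a single one. Their median depth was 11452 UMIs, and their MHC class II share (2.84%) was close to that of the other cells. Doublets were not called anew here, and whether these cells are doublets was not tested. Over the 10 macrophage markers the summed level was 1946 CPM in NTT against 2979.5 in RTT, and 2182 in RTT_PTGS12KO against 2264 in RTT_ROSA26. The 5 T cell markers summed to at most 16.2 CPM, the 5 NK markers to at most 25.6 and the 5 melanoma markers to at most 0.940. Ly6g, which defines neutrophils, was at 0 in every tumour. S100a8, a neutrophil gene, was nonetheless 50.7 CPM in NTT against 242 in RTT, and 88.0 in RTT_PTGS12KO against 59.8 in RTT_ROSA26. S100a9, its partner, was 73.3 CPM in NTT against 324 in RTT, and 128 in RTT_PTGS12KO against 75.9 in RTT_ROSA26, so that RTT was highest for both. One cell of RTT_PTGS12KO held 2745 haemoglobin UMIs among its 16078, and the other cDC2s of that tumour held 11 in all.

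The share of cDC2s among CD45+ cells was 3.41% (3.03% to 3.83%) in NTT against 2.18% (1.87% to 2.53%) in RTT, and 3.34% (3.0% to 3.71%) in RTT_PTGS12KO against 4.21% (3.75% to 4.72%) in RTT_ROSA26, with exact Clopper-Pearson intervals. The 3 loads stayed within 3.26% to 3.67% in NTT against 1.92% to 2.40% in RTT, and 3.18% to 3.59% in RTT_PTGS12KO against 3.85% to 4.46% in RTT_ROSA26. The naive log2 ratio of the shares was 0.64 (95% counting interval 0.37 to 0.93). That of the knockout was -0.33 (95% counting interval -0.56 to -0.10). The yardstick gave 0.95 (95% counting interval 0.67 to 1.23). With a gate of at least 4 of the 6 markers in place of the name, these ratios were 0.96, 0.33 and 0.91, so the knockout turned. Leaving out the cDC2s that held a Ly6c2 UMI, with all cells of other classes kept, turned the naive ratio to -1.05. This took 214 of 282 cDC2s from NTT and 35 of 174 from RTT. Over dendritic cells alone the naive ratio turned to -0.37.

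Among dendritic cells (cDC1s, cDC2s and CCR7+ DCs together) the order was another. cDC2s formed 70.0% (65.2% to 74.4%) of them in NTT and 74.5% (70.2% to 78.4%) in RTT_PTGS12KO, against 90.2% (85.1% to 94%) in RTT and 92.3% (88.8% to 95%) in RTT_ROSA26. The other dendritic cells numbered 121 in NTT and 118 in RTT_PTGS12KO, and 19 in RTT and 24 in RTT_ROSA26. Their share of all CD45+ cells had a log2 ratio of 2.62 (95% counting interval 1.91 to 3.40) for NTT against RTT, 1.71 (95% counting interval 1.06 to 2.40) for the knockout and 0.56 (95% counting interval -0.37 to 1.51) for the yardstick. Shares of a sorted sample add up to a whole, so a share cannot tell fewer cDC2s from more of the other cells.

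**Figure D2:**
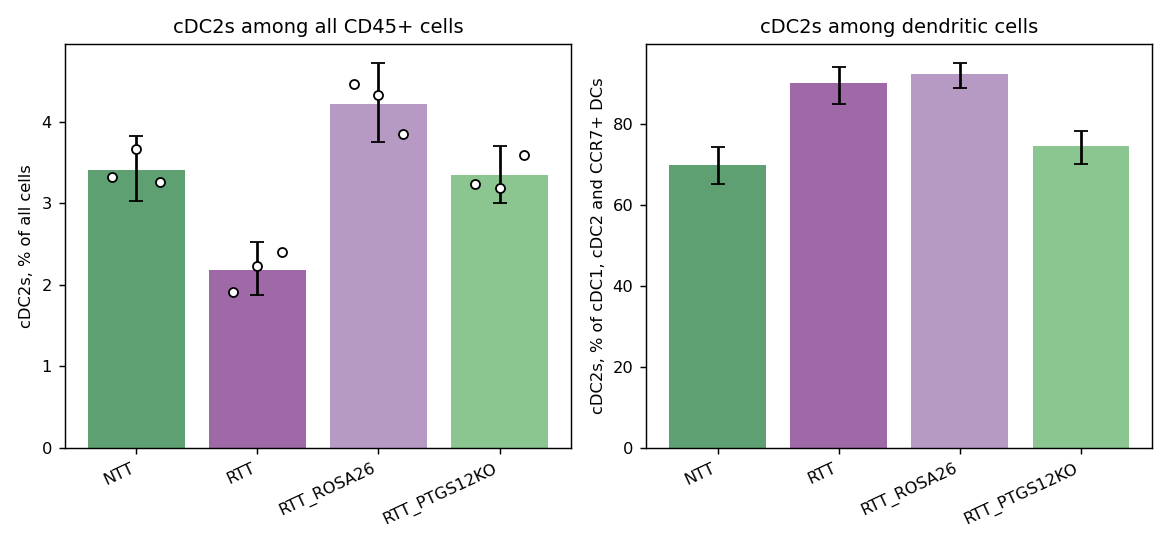
Share of cDC2s among all CD45+ cells (left) and among cDC1s, cDC2s and CCR7+ DCs (right), in percent, 1 bar per tumour with its 95% Clopper-Pearson interval. Open circles are the 3 loads. RTT is lowest on the left at 2.18%, whereas on the right NTT and RTT_PTGS12KO stand lower, at 70.0% and 74.5%.

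The transcriptomes of cDC2s were compared over the 4069 genes with a mean of at least 25 CPM. A gene was called where its CPM differed at least 2-fold and the exact counting interval of the log2 ratio left out 0. In NTT against RTT 196 genes were called higher (4.82% of those compared) and 179 lower (4.40%). In the knockout against its control 222 were higher (5.46%) and 70 lower (1.72%). The yardstick called 14 genes higher (0.344%) and 132 lower (3.24%) in RTT_ROSA26 than in RTT, so these resistant tumours were themselves not alike. RTT_PTGS12KO was therefore also set beside RTT, which called 103 genes higher (2.53%) and 88 lower (2.16%). Of the 222 genes that were higher than in RTT_ROSA26, 91 were also at least 2-fold above RTT, and 36 of the 70 lower ones were at least 2-fold below RTT. The naive and the knockout comparison share no sample. Of the genes called higher, 147 were common to both, which is 75% of the naive and 66.2% of the knockout list. Of those called lower, 38 were common, which is 21.2% and 54.3%. The median log2 ratio of all genes was 0.02, -0.06 and 0.02 in the naive, knockout and yardstick comparison. The 3 genes with the largest knockout ratios, Hba-a2, Hbb-bs and Hba-a1, owed nearly all of their UMIs to the single haemoglobin-rich cell.

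MHC class II, the central product of cDC2s, was level across the tumours. The list held 18 genes of class II presentation, of which 14 passed the minimum, and none was called in any comparison. The background was 4.82% higher and 4.40% lower in the naive and 5.46% and 1.72% in the knockout comparison. In the yardstick it was 0.344% and 3.24%. A count of 0 among 14 is near these shares and says little beside the levels that follow. H2-Aa, the alpha chain of I-A, was 9401 CPM in NTT against 9211.5 in RTT, and 9293 in RTT_PTGS12KO against 9628 in RTT_ROSA26, which gave a naive log2 ratio of 0.03 (0.00 to 0.06) and one of -0.05 (-0.07 to -0.03) in the knockout. H2-Ab1, its beta chain, was 9459 CPM in NTT against 9325 in RTT, and 8779.9 in RTT_PTGS12KO against 10514 in RTT_ROSA26. Cd74, the invariant chain that guides class II to endosomes, was 2221 CPM in NTT against 2220.2 in RTT, and 2151 in RTT_PTGS12KO against 2619.5 in RTT_ROSA26. The 4 tumours stood close together for all of these. Ciita, the transactivator that class II genes depend on, was 179 CPM in NTT against 117 in RTT, and 169 in RTT_PTGS12KO against 137 in RTT_ROSA26, a log2 ratio of 0.62 (0.39 to 0.85) in the naive and 0.30 (0.12 to 0.50) in the knockout comparison. The list's median log2 ratios were -0.04, -0.10 and 0.13 for naive, knockout and yardstick. In single cells the list took a median of 3.82% of UMIs in NTT against 3.73% in RTT, and 3.74% in RTT_PTGS12KO against 4.15% in RTT_ROSA26, and the ranges between quartiles overlapped.

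Genes of inflammatory cDC2s were mostly higher in NTT and in RTT_PTGS12KO than in the samples these were compared with. They were followed with a published signature of 20 genes that lead inflammatory cDC2s in another data set, here called the Inf-cDC2 list. In NTT against RTT 17 of the 20 were called higher and 0 lower, with a median log2 ratio of 1.95 (background 4.82% higher). In the knockout against its control 17 were again higher and 0 lower, with a median of 2.37 (background 5.46%). The yardstick ran the other way, with 0 higher and 13 lower (background 3.24%) and a median of -1.33, with the control tumour of the knockout below the other resistant tumour. Load 2 alone gave -0.21 for this median, the end of a range from -1.74 over the alternatives. Against RTT, RTT_PTGS12KO had 11 of the 20 higher and 0 lower, with a median of 1.16 (background 2.53%). A longer list of 128 interferon-stimulated genes from published cDC2s, the ISG-DC list, holds 17 of the same 20 genes. Of its 103 members above the minimum, 60 were higher in the naive (background 4.82%) and 61 in the knockout comparison (background 5.46%). In the yardstick 36 were lower (background 3.24%), and 28 were higher in RTT_PTGS12KO than in RTT (background 2.53%).

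Isg15, the ubiquitin-like modifier that interferon induces, was 849 CPM in NTT against 153 in RTT, and 439.6 in RTT_PTGS12KO against 63.5 in RTT_ROSA26. Its log2 ratio was 2.47 (2.3 to 2.64) in the naive, 2.79 (2.57 to 3.03) in the knockout and -1.27 (-1.55 to -1.0) in the yardstick comparison. NTT stood highest and RTT_ROSA26 lowest. Rsad2, the antiviral enzyme viperin, was 124 CPM in NTT against 19.7 in RTT, and 62.9 in RTT_PTGS12KO against 2.92 in RTT_ROSA26, with log2 ratios of 2.65 (2.18 to 3.15) and 4.43 (3.43 to 5.66). Ifi205, a member of the interferon-inducible p200 family, was 694 CPM in NTT against 95.9 in RTT, and 394 in RTT_PTGS12KO against 37.2 in RTT_ROSA26. Its family has close copies, so that reads may be shared between members, as they may for Ifi204 and Mndal. Zbp1, a sensor of Z-form nucleic acid, was 352 CPM in NTT against 63.0 in RTT, and 191 in RTT_PTGS12KO against 24.4 in RTT_ROSA26. In each of these genes the 4 tumours kept the order NTT, RTT_PTGS12KO, RTT and RTT_ROSA26. Ifit1, which binds viral RNA, was 108 CPM in NTT against 31.5 in RTT, and 41.2 in RTT_PTGS12KO against 7.29 in RTT_ROSA26. Ifit3, its partner, was 110.4 CPM in NTT against 24.9 in RTT, and 36.6 in RTT_PTGS12KO against 5.83 in RTT_ROSA26. For this pair RTT_PTGS12KO stood close to RTT, with log2 ratios of 0.39 and 0.56, and load 2 alone turned the yardstick from -2.11 to 1.93 for Ifit1 and from -2.09 to 1.16 for Ifit3. Serpina3g, a protease inhibitor from a cluster of near copies, was 127 CPM in NTT against 26.3 in RTT, and 101 in RTT_PTGS12KO against 6.56 in RTT_ROSA26.

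Not every list member took part. Ifitm1, an interferon-inducible membrane protein that is among the 10 leading genes of cDC2s, was 8092 CPM in NTT against 12011 in RTT, and 8981 in RTT_PTGS12KO against 11648 in RTT_ROSA26, with log2 ratios of -0.57 (-0.60 to -0.54) and -0.38 (-0.40 to -0.35). AA467197 and Ccnd2, a cyclin, were the other 2 members that were not called in either comparison, at -0.60 and 0.57 for NTT against RTT and 0.05 and 0.17 for the knockout. With the pDC-marked cells left out, 17 and 17 were called higher in the naive and the knockout comparison. Without any cell that held a Ly6c2 UMI the counts were 15 and 17, and without cycling cells 14 and 17.

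The shift of the ISG-DC list covered most cells of the class. The ISG-DC list took a median of 4.57% of a cell's UMIs in NTT (quartiles 3.62% and 5.67%), 2.15% in RTT (1.77% and 2.99%), 1.76% in RTT_ROSA26 (1.55% and 2.08%) and 3.53% in RTT_PTGS12KO (2.73% and 4.32%). The lower quartile of NTT lay above the upper quartile of both RTT and RTT_ROSA26, and that of RTT_PTGS12KO above the upper quartile of RTT_ROSA26 but below that of RTT. The Inf-cDC2 list overlapped more. It took a median of 2.65% of the UMIs in NTT (lower quartile 1.8%) against 2.03% in RTT (upper quartile 2.58%), and 2.39% in RTT_PTGS12KO (lower quartile 1.59%) against 1.63% in RTT_ROSA26 (upper quartile 2.31%), so the middle ranges overlapped in both comparisons. For the same list without its abundant members Ifitm1 and Ifitm3, the medians were 1.0% (NTT), 0.309% (RTT), 0.206% (RTT_ROSA26) and 0.761% (RTT_PTGS12KO).

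**Figure D3:**
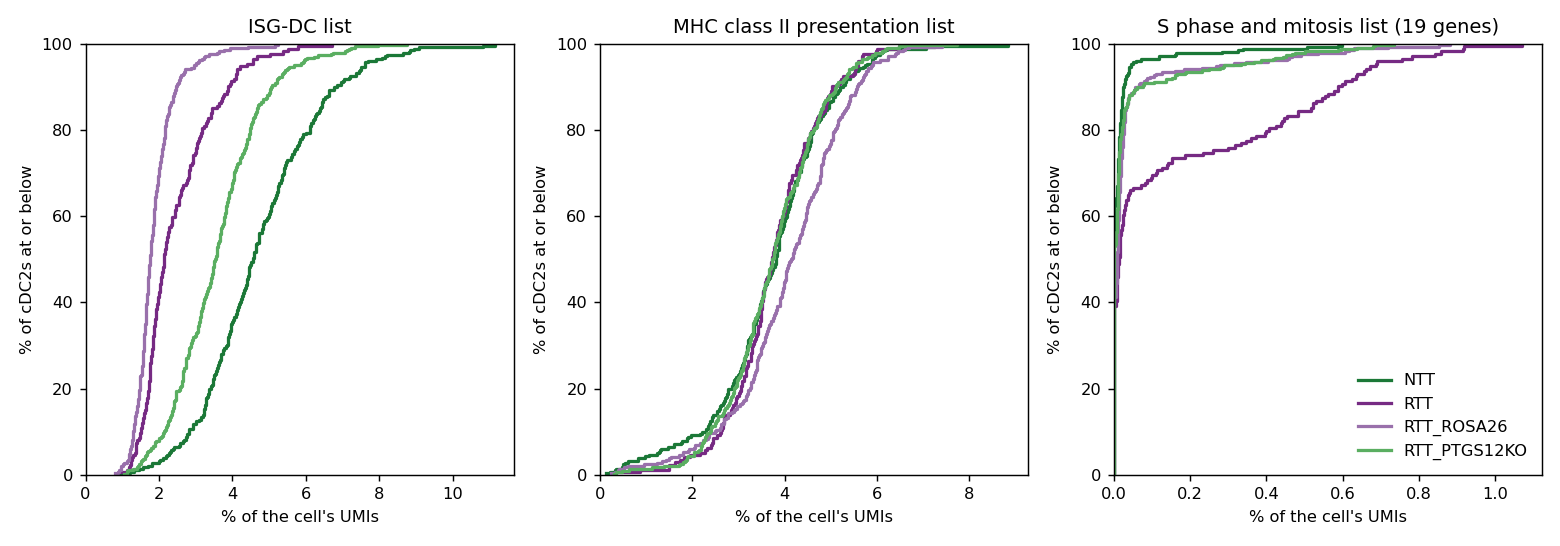
Cumulative share of cDC2s (vertical axis, percent) at or below a given percent of the cell's UMIs (horizontal axis) in the ISG-DC list, the MHC class II list and 19 genes of the cell cycle, 1 line per tumour. The ISG-DC lines stand apart, with medians from 1.76% to 4.57%, the MHC class II lines lie close together, and RTT has the longest tail of cycling cells.

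The promoters of the list genes called in both comparisons were read for letters that interferon-activated factors are known to bind. The 4 shown are Ifi205, Rsad2, Isg15 and Serpina3g. They rank first by the smaller of their naive and knockout ratios among those with a match in their RefSeq promoter. For each of them a stretch of 120 bases around the matches is given. Each is written 5′ to 3′ on the strand of its gene. Capitals mark matches to GAAANNGAA, the core of the interferon-stimulated response element, or TTCNNNGAA, the gamma activated site, on either strand, where N is any base. Sequences and coordinates are those of RefSeq on GRCm38.p6. Ifi205 is at chr1:174031826-174031945, minus strand. Rsad2 is at chr12:26456508-26456627, minus strand. Isg15 is at chr4:156200827-156200946, minus strand. Serpina3g is at chr12:104236027-104236146, plus strand.
Ifi205: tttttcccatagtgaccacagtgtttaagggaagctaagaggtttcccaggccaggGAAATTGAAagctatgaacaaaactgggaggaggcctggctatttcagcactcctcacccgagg
Rsad2: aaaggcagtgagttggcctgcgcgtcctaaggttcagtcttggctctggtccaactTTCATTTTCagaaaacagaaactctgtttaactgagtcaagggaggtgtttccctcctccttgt
Isg15: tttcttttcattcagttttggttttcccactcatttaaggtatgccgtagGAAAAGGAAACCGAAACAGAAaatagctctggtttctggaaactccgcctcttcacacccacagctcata
Serpina3g: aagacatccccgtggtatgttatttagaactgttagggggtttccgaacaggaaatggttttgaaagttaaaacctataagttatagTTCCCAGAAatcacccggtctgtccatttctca

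Isg15 held 3 overlapping matches to the first motif that begin 78, 72 and 66 bases before its start site, and Ifi205 and Rsad2 held 1 each in the stretches shown. Serpina3g held 1 match to the second motif and none to the first in its promoter. Promoters were found for 14 of the 17 genes, and 9 of these held the first motif within 250 bases before to 50 after the start, against 8.56% of all 32851 promoters. The second motif was in 3 of them, against 8.30% of all. The genes came from a list of mostly interferon-stimulated genes and had already been called, so these shares are no test. A match is a description of letters and not a bound site. Where a gene had several promoters in the table, the one listed first was read.

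Part of the genes of MHC class I and of its peptide supply were higher in NTT and in RTT_PTGS12KO. Of 22 measured genes of class I and cross-presentation, 11 were called higher in NTT than in RTT (background 4.82%) and 15 in the knockout than in its control (background 5.46%), with none lower. Load 1 alone called 7 in the naive comparison. The medians over the list were 1.04 and 1.21. In the yardstick the median was -0.55 and 3 were lower (background 3.24%). For RTT_PTGS12KO against RTT it was 0.67 and 2 were higher (background 2.53%). B2m, the light chain that every class I molecule needs, was 4186 CPM in NTT against 2111 in RTT, and 3333 in RTT_PTGS12KO against 1467 in RTT_ROSA26. The classical heavy chain H2-K1 was 2669.6 CPM in NTT against 1495 in RTT, and 1930.3 in RTT_PTGS12KO against 973 in RTT_ROSA26 and did not reach 2-fold in either comparison. The non-classical H2-Q7 was 502 CPM in NTT against 131 in RTT, and 302 in RTT_PTGS12KO against 51.4 in RTT_ROSA26, with log2 ratios of 1.94 (1.75 to 2.13) and 2.55 (2.3 to 2.82), though the H2-Q and H2-T genes are near copies whose reads can be shared. Tap1, which pumps peptides into the endoplasmic reticulum, was 291 CPM in NTT against 126 in RTT, and 249 in RTT_PTGS12KO against 69.7 in RTT_ROSA26, or 1.20 (1.0 to 1.41) and 1.84 (1.61 to 2.07) as log2 ratios. The immunoproteasome subunit Psmb9 was 764 CPM in NTT against 343 in RTT, and 549.7 in RTT_PTGS12KO against 225 in RTT_ROSA26. For each of these genes NTT was highest and RTT_ROSA26 lowest. Per cell the list took a median of 1.86% of UMIs in NTT against 0.815% in RTT, and 1.48% in RTT_PTGS12KO against 0.625% in RTT_ROSA26.

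Several transducers of the interferon signal were higher, whereas no receptor chain was. Of 17 measured members of the STAT, IRF and interferon receptor list, 7 were higher and 1 lower in NTT than in RTT, and 6 higher and 0 lower in the knockout than in its control (background 4.82% and 4.40%, and 5.46% and 1.72%). Irf1, an early target of interferon gamma, was 338 CPM in NTT against 125 in RTT, and 277 in RTT_PTGS12KO against 39.8 in RTT_ROSA26, and Irf7, which amplifies type I interferon, was 406 CPM in NTT against 57.8 in RTT, and 109 in RTT_PTGS12KO against 23 in RTT_ROSA26. Irf7 in RTT_PTGS12KO was 0.91 (0.62 to 1.22) against RTT on the log2 scale, and in NTT 2.81 (2.54 to 3.10). The feedback inhibitors Socs1, at 95.9 CPM in NTT against 39.0 in RTT, and 96.3 in RTT_PTGS12KO against 10.2 in RTT_ROSA26, and Usp18, at 79.3 CPM in NTT against 17.9 in RTT, and 30.0 in RTT_PTGS12KO against 10.6 in RTT_ROSA26, were called higher in both comparisons. Ifngr1, a chain of the interferon gamma receptor, was 219.9 CPM in NTT against 499 in RTT, and 286 in RTT_PTGS12KO against 487 in RTT_ROSA26 and was called lower in NTT, at -1.18 (-1.34 to -1.03). Ifnar1 (-0.04 and -0.14) and Ifnar2 (0.18 and -0.23), the type I receptor chains, stayed within 2-fold in the naive and knockout comparison.

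Apart from haemoglobin, 3 GTPases that act against intracellular pathogens, Iigp1, Tgtp1 and Tgtp2, had the largest knockout ratios. Iigp1 was 524 CPM in NTT against 96.3 in RTT, and 402 in RTT_PTGS12KO against 8.75 in RTT_ROSA26, a log2 ratio of 5.52 (4.94 to 6.17) in the knockout, 2.44 (2.23 to 2.66) in the naive and -3.46 (-4.14 to -2.85) in the yardstick comparison. Gbp2 was 491 CPM in NTT against 198 in RTT, and 657 in RTT_PTGS12KO against 33.9 in RTT_ROSA26, with 4.28 (3.98 to 4.59) in the knockout. Tgtp1 and Tgtp2 are near copies of each other, and were at 5.46 and 5.42. Batf2, a transcription factor that interferon gamma induces, was 52.9 CPM in NTT against 22.1 in RTT, and 67.2 in RTT_PTGS12KO against 2.92 in RTT_ROSA26. RTT_ROSA26 was lowest for each of them. Against RTT the ratios of RTT_PTGS12KO were smaller, at 2.06 for Iigp1, 1.73 for Gbp2 and 1.60 for Batf2.

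**Figure D4:**
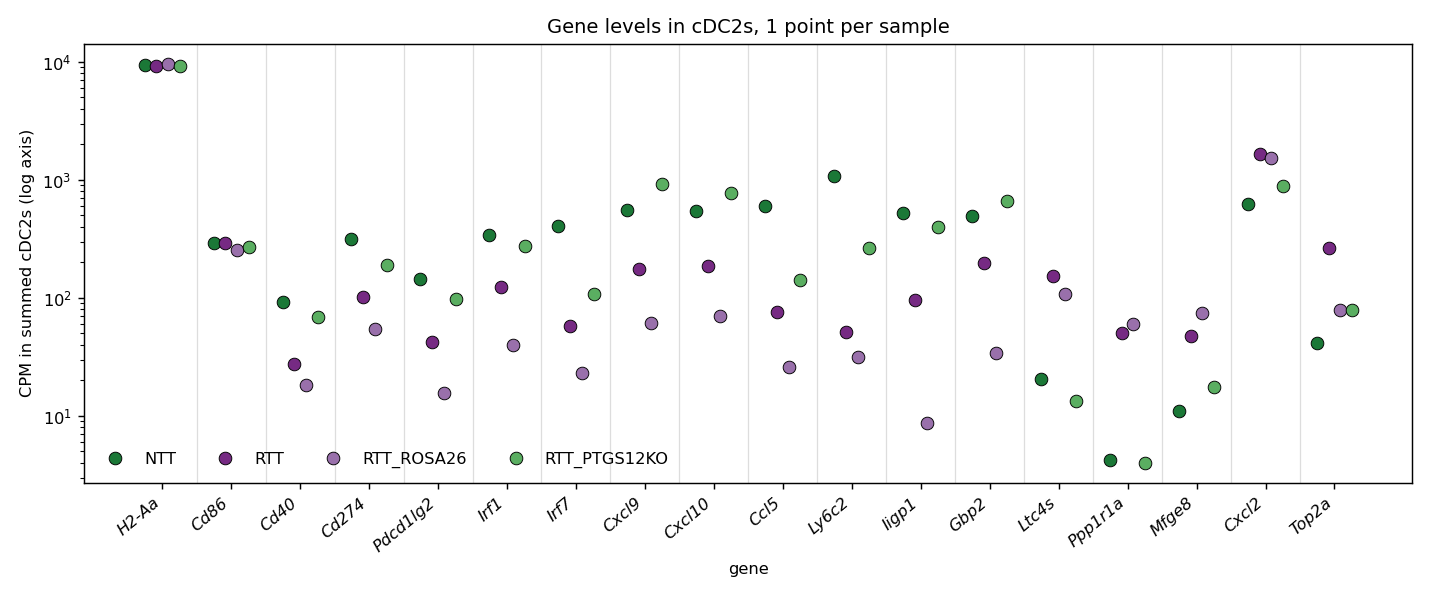
CPM of 18 named genes in the summed cDC2s (log axis), 1 point per tumour. H2-Aa and Cd86 coincide across the tumours, the interferon-responsive genes stand higher in NTT and RTT_PTGS12KO than in RTT and RTT_ROSA26, and Ltc4s, Ppp1r1a and Mfge8 stand lower there.

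Chemokines differed by gene. Of 14 measured chemokines 6 were higher and 2 lower in NTT than in RTT, and 7 were higher and 0 lower in the knockout (background 4.82% and 4.40%, and 5.46% and 1.72%). In the yardstick 1 was higher and 7 were lower (background 0.344% and 3.24%). Cxcl9 and Cxcl10, ligands of CXCR3 that draw in activated T cells, had the 2 largest knockout ratios of the list. Cxcl9 was 559 CPM in NTT against 174 in RTT, and 929 in RTT_PTGS12KO against 60.9 in RTT_ROSA26, with log2 ratios of 1.68 (1.51 to 1.85) in the naive and 3.93 (3.71 to 4.16) in the knockout comparison. Load 1 alone gave -0.03 for the former, and load 2 alone turned the yardstick from -1.52 to 1.49. Cxcl10 was 545 CPM in NTT against 187 in RTT, and 769 in RTT_PTGS12KO against 69.7 in RTT_ROSA26, with 1.55 (1.38 to 1.71) and 3.47 (3.25 to 3.68). The knockout tumour was highest for both. After thinning, a Cxcl9 UMI was seen in 39.3% of cDC2s in NTT against 5.36% in RTT, and 40.7% in RTT_PTGS12KO against 3.28% in RTT_ROSA26, against 8.09% of the NK cells of all 4 tumours together, and without thinning 45.0% (NTT), 13.8% (RTT), 4.51% (RTT_ROSA26), 49.7% (RTT_PTGS12KO) and 11.7% (NK cells). The shares of RTT and RTT_ROSA26 were below this pooled NK share after thinning. In NK cells, which are no known source of it, Cxcl9 was 114 CPM in NTT against 35.3 in RTT, and 88.9 in RTT_PTGS12KO against 2.17 in RTT_ROSA26, so the counts outside the cells that make it moved with the tumours too, at a level below that of the cDC2s in each tumour. Their part in the cDC2 result was not tested.

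Ccl5, which attracts T cells, was 604 CPM in NTT against 75.2 in RTT, and 142 in RTT_PTGS12KO against 25.9 in RTT_ROSA26, with log2 ratios of 3.01 (2.77 to 3.25) and 2.45 (2.09 to 2.83). NK cells, which make it, held 3652.5 CPM in NTT against 1001 in RTT, and 1289 in RTT_PTGS12KO against 513 in RTT_ROSA26, and the part of free RNA in the cDC2 value was not tested. Ccl17, a CCR4 ligand of mature dendritic cells, was 51.6 CPM in NTT against 42.3 in RTT, and 191 in RTT_PTGS12KO against 20.8 in RTT_ROSA26. It was called higher in the knockout, at 3.20 (2.81 to 3.62), and was within 2-fold in the naive comparison, at 0.29 (-0.12 to 0.70). A Ccl17 UMI was in 9.64% of thinned cDC2s of RTT_PTGS12KO, against 7.14%, 5.36% and 2.92% in NTT, RTT and RTT_ROSA26 and 0.213% of NK cells, so its UMIs lay in few cells. Ccl22, the other CCR4 ligand, was 37.5 CPM in NTT against 9.87 in RTT, and 30.0 in RTT_PTGS12KO against 9.12 in RTT_ROSA26 and fell below the minimum for a call. Ccl2, a monocyte attractant, was 110.0 CPM in NTT against 22.1 in RTT, and 81.8 in RTT_PTGS12KO against 51.4 in RTT_ROSA26 and was higher in NTT at 2.32 (1.86 to 2.80), beside 1.22 (0.73 to 1.73) in the yardstick. The neutrophil attractant Cxcl2 ran the other way, at 626 CPM in NTT against 1658 in RTT, and 897 in RTT_PTGS12KO against 1531 in RTT_ROSA26, with log2 ratios of -1.41 (-1.49 to -1.32) and -0.77 (-0.84 to -0.70), of which the first was called. Pf4, a chemokine of platelets and some macrophages, was 53.7 CPM in NTT against 174 in RTT, and 60.3 in RTT_PTGS12KO against 55.8 in RTT_ROSA26, so RTT stood alone, and load 2 alone turned its naive ratio to 1.24.

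Among costimulatory and checkpoint molecules, some differed and Cd80 and Cd86 stayed within 2-fold. Of 14 measured, 5 were higher in NTT (background 4.82%) and 6 in the knockout (background 5.46%), with none lower, and the medians were 0.28 and 0.38. Cd86, which gives T cells their second signal through CD28, was 292 CPM in NTT against 289 in RTT, and 269 in RTT_PTGS12KO against 254 in RTT_ROSA26. Cd80, the other ligand of CD28, was 40.9 CPM in NTT against 62.0 in RTT, and 55.7 in RTT_PTGS12KO against 58.3 in RTT_ROSA26. Both stayed within 2-fold in every comparison. Cd40, the receptor for help from T cells, was 92.1 CPM in NTT against 27.3 in RTT, and 69.5 in RTT_PTGS12KO against 18.2 in RTT_ROSA26, or 1.76 (1.33 to 2.20) and 1.93 (1.49 to 2.40) as log2 ratios. The ligands of PD-1 moved in the same direction. Cd274 (PD-L1) was 315 CPM in NTT against 101 in RTT, and 191 in RTT_PTGS12KO against 54.0 in RTT_ROSA26, with 1.64 (1.42 to 1.87) and 1.82 (1.57 to 2.09). Pdcd1lg2 (PD-L2) was 146 CPM in NTT against 42.3 in RTT, and 97.2 in RTT_PTGS12KO against 15.7 in RTT_ROSA26, with 1.79 (1.45 to 2.14) and 2.63 (2.17 to 3.12). Icam1, an adhesion molecule of the T cell contact, at 1.39 and 2.27, and Slamf7, a self-ligand receptor, at 1.59 and 2.09, were also called in both. Against RTT, RTT_PTGS12KO had Cd40 at 1.35 (0.93 to 1.79), Cd274 at 0.92 (0.70 to 1.15) and Pdcd1lg2 at 1.20 (0.86 to 1.55).

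Ccr7, the receptor that takes dendritic cells to lymph nodes, was 65.2 CPM in NTT against 18.3 in RTT, and 35.4 in RTT_PTGS12KO against 26.3 in RTT_ROSA26 in cDC2s, far below CCR7+ DCs (2234 CPM over all tumours). It was called higher in NTT at 1.83 (1.32 to 2.38) and stayed within 2-fold in the knockout at 0.43 (0.00 to 0.87). Fscn1, which shapes the dendrites of mature cells, was at 0 in 3 tumours and at 0.729 CPM in RTT_ROSA26. Over the 16 measured genes of maturation and migration 3 were higher in NTT than in RTT, 3 were higher and 1 lower in the knockout (background 4.82% higher in the former, and 5.46% higher and 1.72% lower in the latter), and Ccl5 and Cd40 were among both sets. Socs2, a brake on cytokine signalling, was the lower one, at 35.0 CPM in NTT against 32.0 in RTT, and 14.9 in RTT_PTGS12KO against 30.6 in RTT_ROSA26. Il12b, a chain of interleukin-12 that directs T cells, had 0 UMIs in all 4 tumours, and a count of 0 allows up to 3 UMIs in each sum. Il10 was 0.426 CPM in NTT against 3.29 in RTT, and 0.286 in RTT_PTGS12KO against 0.365 in RTT_ROSA26. Il15, which sustains CD8 T and NK cells, was 7.67 CPM in NTT against 2.35 in RTT, and 6.29 in RTT_PTGS12KO against 1.46 in RTT_ROSA26, and both were under the minimum. Il1b was 2526 CPM in NTT against 3625 in RTT, and 3474.5 in RTT_PTGS12KO against 3181 in RTT_ROSA26 and stayed within 2-fold. Il18bp, the interferon-inducible inhibitor of interleukin-18, was the cytokine-list member called in both comparisons, at 1.94 (1.55 to 2.35) and 3.33 (2.70 to 4.03).

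Monocyte markers were among the 8 genes with the largest naive ratios. Ly6c2, the surface antigen that marks inflammatory monocytes and that interferon can induce, was 1077 CPM in NTT against 51.2 in RTT, and 266 in RTT_PTGS12KO against 31.7 in RTT_ROSA26. Its log2 ratio was 4.39 (4.12 to 4.68) in the naive, 3.07 (2.75 to 3.40) in the knockout and -0.69 (-1.11 to -0.27) in the yardstick comparison. A Ly6c2 UMI was in 214 of 282 cDC2s of NTT against 35 of 174 of RTT, and 133 of 344 of RTT_PTGS12KO against 39 of 288 of RTT_ROSA26. After thinning the shares were 69.8% (NTT), 10.1% (RTT), 8.03% (RTT_ROSA26) and 28.0% (RTT_PTGS12KO). NK cells carry the gene themselves (25.7%), so they give no background for it. Without the pDC-marked cells the log2 ratios of Ly6c2 were 4.26 (naive), 3.43 (knockout) and -1.21 (yardstick), of which the last was then called. Plac8, a lysosomal protein of monocytes and pDCs, was 3488 CPM in NTT against 374 in RTT, and 1658 in RTT_PTGS12KO against 265 in RTT_ROSA26. Ly6i, a relative of Ly6c2, and Cfb, complement factor B, were called in both comparisons, at 3.09 and 3.44 and at 3.58 and 2.95. Other monocyte markers did not join them. Ccr2, the receptor that brings monocytes into tissue, was 159 CPM in NTT against 286 in RTT, and 328 in RTT_PTGS12KO against 424 in RTT_ROSA26, and Chil3, F13a1, Hp and Vcan were each under the minimum. Over the 8 monocyte markers the summed level was 4946 CPM in NTT against 808 in RTT, and 2388 in RTT_PTGS12KO against 793 in RTT_ROSA26, so it moved with the interferon genes. Among cDC2s without a Ly6c2 UMI the Inf-cDC2 counts were 15 and 17, as given above. With only the cDC2s that held a Ly6c2 UMI left out, the naive ratio of the cDC2 share turned to -1.05. Ly6d, another of the 8 genes at 4.16, came wholly from the pDC-marked cells.

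Of the 10 genes that lead the cDC2 class, Plet1, Dcstamp and Klrb1b were called in a comparison and 7 were not. The background was 4.82% higher and 4.40% lower in the naive and 5.46% and 1.72% in the knockout comparison. In the yardstick it was 0.344% and 3.24%. Plet1, a surface protein of migratory dendritic cells, was 394 CPM in NTT against 94.9 in RTT, and 199 in RTT_PTGS12KO against 55.4 in RTT_ROSA26, with log2 ratios of 2.05 (1.83 to 2.28) and 1.84 (1.59 to 2.11). Dcstamp, a membrane protein of cell fusion, was 35.8 CPM in NTT against 157 in RTT, and 130.1 in RTT_PTGS12KO against 190.4 in RTT_ROSA26, so NTT stood apart at -2.14 (-2.50 to -1.79). Mgl2 was 328 CPM in NTT against 279.6 in RTT, and 523 in RTT_PTGS12KO against 454 in RTT_ROSA26. P2ry10, a lysophospholipid receptor, was 159 CPM in NTT against 202 in RTT, and 156 in RTT_PTGS12KO against 177 in RTT_ROSA26. H2-DMb2 was 228 CPM in NTT against 256 in RTT, and 254 in RTT_PTGS12KO against 327 in RTT_ROSA26. Ramp3, a receptor-modifying protein, was 95.9 CPM in NTT against 94.4 in RTT, and 133 in RTT_PTGS12KO against 104 in RTT_ROSA26. These 4 stayed within 2-fold in every comparison.

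Fewer genes were lower in cDC2s of the knockout tumour, and some of these were lower in NTT as well. Ltc4s, the synthase of leukotriene C4, was 20.5 CPM in NTT against 152 in RTT, and 13.4 in RTT_PTGS12KO against 107 in RTT_ROSA26. Its log2 ratio was -2.90 (-3.36 to -2.45) in the naive, -3.0 (-3.47 to -2.55) in the knockout and -0.51 (-0.74 to -0.27) in the yardstick comparison. After thinning it was seen in 5.16% (NTT), 39.3% (RTT), 28.1% (RTT_ROSA26) and 4.22% (RTT_PTGS12KO) of cDC2s, against 0.532% of NK cells, so both resistant tumours with intact cyclooxygenase genes stood clear of NTT and RTT_PTGS12KO. Ppp1r1a, an inhibitor of protein phosphatase 1 that protein kinase A switches on, was 4.26 CPM in NTT against 50.7 in RTT, and 4.00 in RTT_PTGS12KO against 59.8 in RTT_ROSA26, with -3.57 (-4.67 to -2.64) and -3.90 (-4.80 to -3.11). It was at most 7.03 CPM in macrophages and 0.275 in monocytes. Mfge8, a bridge to dying cells, was 11.1 CPM in NTT against 47.5 in RTT, and 17.4 in RTT_PTGS12KO against 74.4 in RTT_ROSA26. Siglece, an inhibitory lectin, was 12.8 CPM in NTT against 43.2 in RTT, and 18.0 in RTT_PTGS12KO against 61.3 in RTT_ROSA26. Nxpe5, Arhgap24 and 2900026A02Rik fell likewise, by 2.44, 1.79 and 1.94 on the log2 scale in the knockout and by 2.50, 2.69 and 1.83 in the naive comparison. Timp1, an inhibitor of metalloproteinases, was 18.3 CPM in NTT against 49.8 in RTT, and 30.3 in RTT_PTGS12KO against 136 in RTT_ROSA26, with RTT_ROSA26 above RTT by 1.45. Trf, which encodes transferrin, was 34.5 CPM in NTT against 241 in RTT, and 91.2 in RTT_PTGS12KO against 195 in RTT_ROSA26.

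Most genes of suppressive or lipid-laden macrophages were lower in NTT. Of 12 measured, 7 were lower and 0 higher in NTT than in RTT (background 4.40% lower), with a median of -1.17 that ran from -1.7 to -0.46 over the alternatives, the latter in load 3 alone, and 2 were lower and 1 higher in the knockout (background 1.72% lower), with a median of -0.36. Spp1, osteopontin, was 142 CPM in NTT against 432 in RTT, and 241 in RTT_PTGS12KO against 578 in RTT_ROSA26, with -1.60 (-1.79 to -1.42) and -1.26 (-1.38 to -1.14). Mrc1, the mannose receptor, was 20.5 CPM in NTT against 89.7 in RTT, and 65.5 in RTT_PTGS12KO against 106 in RTT_ROSA26. Fn1, fibronectin, was 36.2 CPM in NTT against 156 in RTT, and 160.1 in RTT_PTGS12KO against 162 in RTT_ROSA26, so that NTT was lowest for both. Trem2, a lipid receptor, was 34.1 CPM in NTT against 107 in RTT, and 61.7 in RTT_PTGS12KO against 81.7 in RTT_ROSA26. Ctsl, a lysosomal protease, was 237 CPM in NTT against 433 in RTT, and 199.5 in RTT_PTGS12KO against 430.3 in RTT_ROSA26 and was called in the knockout at -1.11 (-1.25 to -0.97), beside -0.87 (-1.03 to -0.72) for NTT. Lgals3, galectin-3, was the member called higher in the knockout, at 2294 CPM in NTT against 1301 in RTT, and 2223 in RTT_PTGS12KO against 973 in RTT_ROSA26. These genes are abundant in macrophages, whose markers within the class are given above, and how far free RNA or mixed cells set their levels was not tested.

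Cell cycle genes set RTT apart from the other 3 tumours. Of 18 measured genes of S phase and mitosis, 14 were lower in NTT than in RTT (background 4.40%) and 13 were lower in RTT_ROSA26 than in RTT (background 3.24%). With cells thinned to 4000 UMIs 9 were lower in NTT, and load 1 alone gave 8. In the knockout none was higher (background 5.46%) and 1, Cenpf, was lower (background 1.72%). Mki67, which marks dividing cells, was 19.6 CPM in NTT against 127 in RTT, and 30.6 in RTT_PTGS12KO against 36.5 in RTT_ROSA26. Top2a, a topoisomerase of chromosome segregation, was 41.8 CPM in NTT against 267 in RTT, and 79.5 in RTT_PTGS12KO against 78.8 in RTT_ROSA26. Ube2c and Ccnb2, which act in mitosis, were at -3.41 and -3.08 in the naive comparison. RTT was highest throughout. Cenpf, a kinetochore protein, was 1.71 CPM in NTT against 107 in RTT, and 11.7 in RTT_PTGS12KO against 28.1 in RTT_ROSA26. Nusap1 and Cdca3 fell by 3.53 and 2.83 on the log2 scale in NTT. At least 5 UMIs of 19 cycle genes were counted in 62 of 174 cDC2s of RTT (35.6%), 11 of 282 of NTT (3.90%), 33 of 288 of RTT_ROSA26 (11.5%) and 45 of 344 of RTT_PTGS12KO (13.1%). These cells were deep, with a median of 15271 UMIs. Without them none of the list was called in the naive comparison, and the median turned from -2.37 to 0.17. RTT also held the fewest cDC2s, the deepest cells and the highest S100a8 and S100a9, and their part in the cycle result was not tested.

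Glycolytic genes mostly had positive log2 ratios under 1 in both main comparisons. Of 18 measured, 17 had a positive log2 ratio in the naive and 17 in the knockout comparison, of which 2 and 2 were called (background 4.82% and 5.46% higher), with medians of 0.43 and 0.57, against -0.11 in the yardstick. Gapdh was 2713 CPM in NTT against 2035.5 in RTT, and 2798 in RTT_PTGS12KO against 1885 in RTT_ROSA26. Pfkp, a phosphofructokinase, was 312 CPM in NTT against 121 in RTT, and 279.9 in RTT_PTGS12KO against 105 in RTT_ROSA26, with 1.37 (1.16 to 1.58) and 1.42 (1.23 to 1.61). Bnip3, a hypoxia-induced gene of mitochondrial turnover, was 111 CPM in NTT against 48.9 in RTT, and 120.3 in RTT_PTGS12KO against 55.1 in RTT_ROSA26.

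**Figure D5:**
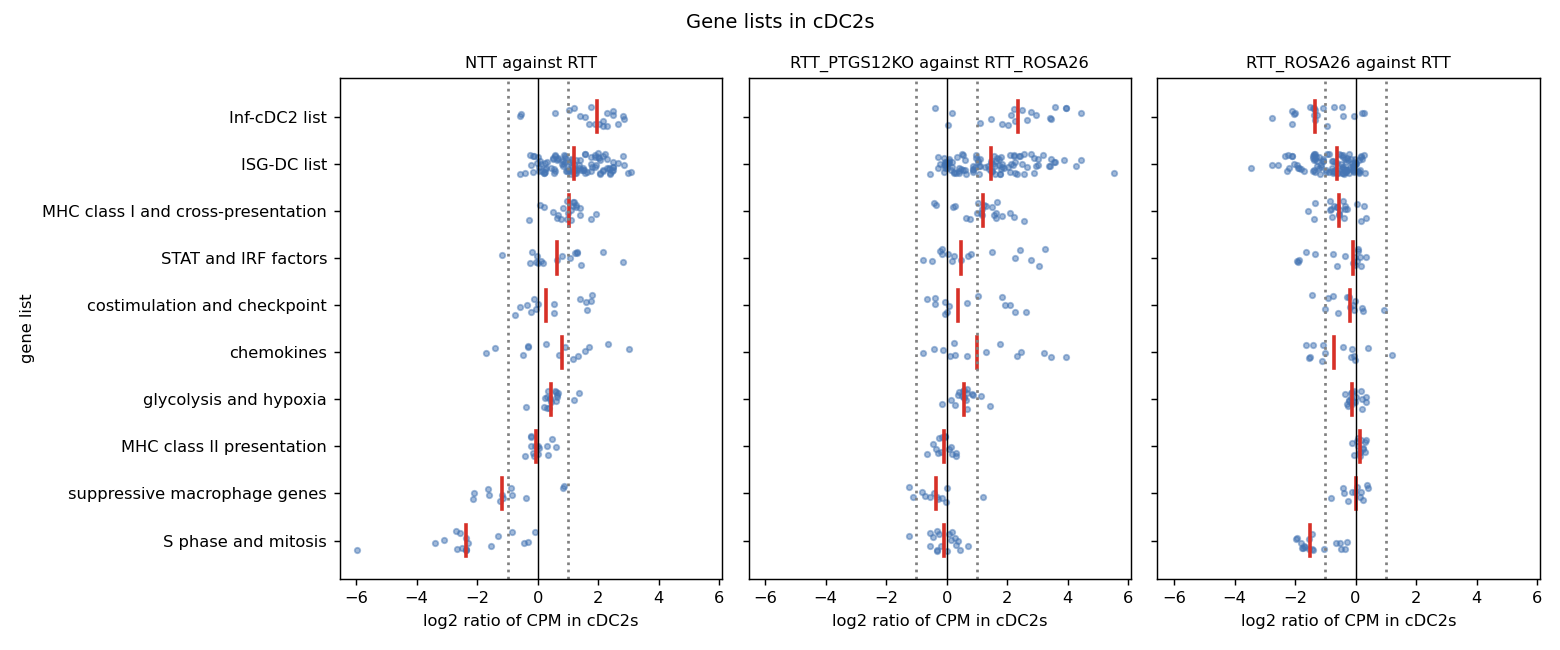
Log2 ratios of CPM in cDC2s (horizontal axis) for the measured members of 10 gene lists, in the naive, knockout and yardstick comparison. Points are genes, red bars medians and dotted lines 2-fold. The Inf-cDC2 median is 1.95, 2.37 and -1.33, whereas the MHC class II median stays between -0.10 and 0.13.

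Among 17 measured transcription factors of dendritic cells, 1 was higher and 2 were lower in NTT, and 1 was higher and 0 lower in the knockout, beside a background of 4.82% and 4.40%, and 5.46% and 1.72%. Irf8, which specifies cDC1s and also responds to interferon gamma, was 282 CPM in NTT against 107 in RTT, and 286 in RTT_PTGS12KO against 74.0 in RTT_ROSA26, with 1.40 (1.18 to 1.63) and 1.95 (1.73 to 2.17). Irf4, the factor most tied to cDC2s, was 14.5 CPM in NTT against 30.1 in RTT, and 32.9 in RTT_PTGS12KO against 32.8 in RTT_ROSA26, and was lower in NTT at -1.05 (-1.7 to -0.43). Id2 was 249 CPM in NTT against 599.6 in RTT, and 474 in RTT_PTGS12KO against 386 in RTT_ROSA26, lower in NTT at -1.27 (-1.41 to -1.12). Klf4, needed by a branch of cDC2s, was 232 CPM in NTT against 334 in RTT, and 272 in RTT_PTGS12KO against 384 in RTT_ROSA26 and stayed within 2-fold. Zbtb46, the marker of the conventional lineage, was 18.8 CPM in NTT against 10.8 in RTT, and 14.3 in RTT_PTGS12KO against 17.5 in RTT_ROSA26, under the minimum. Of the surface molecules by which cDC2s are sorted, Itgax (CD11c) was 149 CPM in NTT against 259 in RTT, and 179 in RTT_PTGS12KO against 293 in RTT_ROSA26. Itgam (CD11b) was 75.9 CPM in NTT against 149 in RTT, and 116 in RTT_PTGS12KO against 183 in RTT_ROSA26. Sirpa (CD172a) was 112 CPM in NTT against 110.4 in RTT, and 101 in RTT_PTGS12KO against 123 in RTT_ROSA26, and all 3 stayed within 2-fold. Axl, a receptor for dying cells, is the surface marker by which the study gated inflammatory cDC2s. It was 45.6 CPM in NTT against 32.0 in RTT, and 76.6 in RTT_PTGS12KO against 32.1 in RTT_ROSA26. It was called higher in the knockout at 1.26 (0.90 to 1.62) but was not called in NTT against RTT, at 0.51 (0.06 to 0.97). Cd24a, a small surface glycoprotein, was 49.4 CPM in NTT against 155 in RTT, and 96.6 in RTT_PTGS12KO against 163 in RTT_ROSA26, lower in NTT at -1.64 (-1.96 to -1.33). Cx3cr1, the fractalkine receptor, was 8.52 CPM in NTT against 37.1 in RTT, and 25.2 in RTT_PTGS12KO against 46.3 in RTT_ROSA26. Clec4e, the lectin Mincle, was 51.6 CPM in NTT against 114 in RTT, and 88.3 in RTT_PTGS12KO against 72.9 in RTT_ROSA26, and both were lower in NTT than in RTT.

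Few genes by which cDC2s could make or sense prostaglandins were measured. Of 22 listed, 8 were measured, and Ltc4s was the 1 called, lower in both comparisons (background 4.40% and 1.72%). Ptgs2 was 236 CPM in NTT against 463 in RTT, and 363 in RTT_PTGS12KO against 403 in RTT_ROSA26, within 2-fold in each comparison, with log2 ratios of -0.97 (-1.12 to -0.82) and -0.15 (-0.27 to -0.04). Ptgs1 was 2.98 CPM in NTT against 6.11 in RTT, and 0.572 in RTT_PTGS12KO against 5.47 in RTT_ROSA26, under the minimum. Of the receptors for prostaglandin E2 that raise cyclic AMP, Ptger4 was 43.5 CPM in NTT against 31.0 in RTT, and 46.6 in RTT_PTGS12KO against 53.2 in RTT_ROSA26. Ptger2 was 3.41 CPM in NTT against 8.93 in RTT, and 3.43 in RTT_PTGS12KO against 3.28 in RTT_ROSA26, under the minimum. In the cAMP response list of 17 measured genes, 2 were lower in NTT (background 4.40%) and 1 in the knockout (background 1.72%). Rgs1, a brake on G protein signalling, was 1024 CPM in NTT against 1845 in RTT, and 923 in RTT_PTGS12KO against 1894.5 in RTT_ROSA26, with -0.85 (-0.92 to -0.78) and -1.04 (-1.10 to -0.97), of which the second was called. Thbs1 and Pde3b, called lower in NTT, were at -1.82 and -1.02. Nr4a2, a cAMP-induced nuclear receptor, was 165 CPM in NTT against 291 in RTT, and 266 in RTT_PTGS12KO against 365 in RTT_ROSA26 and was not called.

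Some receptors for antibody and for nucleic acid differed. Fcgr1, the high-affinity activating receptor that inflammatory cDC2s are known to carry, was 363 CPM in NTT against 163 in RTT, and 295 in RTT_PTGS12KO against 107 in RTT_ROSA26, with 1.16 (0.97 to 1.34) and 1.46 (1.28 to 1.66). Fcgr4, another activating one, was 195 CPM in NTT against 211 in RTT, and 286 in RTT_PTGS12KO against 84.2 in RTT_ROSA26 and was called in the knockout at 1.76 (1.55 to 1.98). The inhibitory Fcgr2b was 274 CPM in NTT against 559.6 in RTT, and 418 in RTT_PTGS12KO against 472 in RTT_ROSA26 and lower in NTT at -1.03 (-1.17 to -0.89). Fcgrt, the neonatal Fc receptor, was 173 CPM in NTT against 81.3 in RTT, and 116 in RTT_PTGS12KO against 76.6 in RTT_ROSA26 and higher in NTT at 1.09 (0.83 to 1.35). Of 9 measured pattern recognition receptors, 2 were higher in NTT (background 4.82%) and 1 in the knockout (background 5.46%), Zbp1 in both and Ifih1, the RNA sensor MDA5, in NTT at 1.53 (0.99 to 2.10). Ly6a, the interferon-inducible antigen Sca-1, was 3509.7 CPM in NTT against 1546 in RTT, and 2692 in RTT_PTGS12KO against 617 in RTT_ROSA26. Ifi44 and Ifi27l2a, which type I interferon induces, were 3.09 (2.48 to 3.77) and 2.99 (2.89 to 3.08) in the naive and 1.67 (0.91 to 2.50) and 2.19 (2.07 to 2.3) in the knockout comparison. Of 14 immediate early and heat shock genes, Atf3, a stress factor, was higher at 1.08 and Hsph1, a chaperone, lower at -1.78 in NTT (background 4.82% and 4.40%), and none was called in the knockout (background 5.46% and 1.72%).

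cDC2s were set beside the main monocyte class (Monocyte_1) and beside macrophages (5 named classes summed) under the same comparisons. Inflammatory monocytes, which the study described as high in interferon-stimulated genes, form a class of their own (Infl_Mono, 2475 cells). They are not among the monocytes below. How far this split of monocytes by their transcriptome sets the monocyte ratios was not tested. The differences between classes were not tested, since each class has 1 sample per group, and the medians cover the members measured in that class. For the Inf-cDC2 list the median log2 ratio of NTT against RTT was 1.95 in cDC2s, 0.66 in monocytes and 2.96 in macrophages. In the knockout against its control it was 2.37 in cDC2s, -0.16 in monocytes and 1.86 in macrophages. Cxcl9 is an example. In the knockout its log2 ratio was 3.93 in cDC2s, 3.87 in macrophages and -0.60 in monocytes, where its level was 1084 CPM in NTT against 1509 in RTT, and 1609.8 in RTT_PTGS12KO against 2439.7 in RTT_ROSA26. For MHC class II the median in NTT against RTT was -0.04 in cDC2s, 0.20 in monocytes and 2.41 in macrophages. In the knockout these values were -0.10, 0.38 and 1.68. H2-Aa in macrophages was 4245 CPM in NTT against 512 in RTT, and 1617 in RTT_PTGS12KO against 358 in RTT_ROSA26, whereas no tumour had under 9211.5 CPM in cDC2s. The macrophage sum includes the class TAM_H2Ab1, which the study described as absent from resistant tumours and increased in the knockout. The part of such a change of composition in the macrophage ratios was not tested. The cell cycle list, with a median of -2.37 for NTT against RTT in cDC2s, was at 0.25 in macrophages. Ltc4s was at -3.0 in cDC2s and -1.81 in macrophages in the knockout. Ppp1r1a, called lower in cDC2s, was too low in macrophages to compare.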

How the data were processed

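CD45+ cells of dissociated tumours were sorted, labelled with sample tags, pooled and sequenced as droplet-based 3′ single-cell RNA in 3 loads. The deposited matrix holds UMI counts per gene and cell, which the authors made with Cell Ranger (multi) on the mouse genome mm10. Their filter asked for more than 1000 genes per cell and for less than 15% mitochondrial and 40% ribosomal counts. They clustered the cells with Seurat 4.3.0 after Harmony integration, and named the clusters. All deposited cells met the gene limit, and 0 columns belonged to other samples. The names were used as deposited, the class DC3 being called CCR7+ DCs here, and doublets were not called anew.

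The counts of the cDC2s were summed per sample and scaled to CPM. Genes with a mean of at least 25 CPM over the 4 samples were compared. Log2 ratios carry exact conditional intervals (binomial), and shares carry exact Clopper-Pearson intervals, at 95% and for counting error only. A gene was called at 2-fold or more with an interval that left out 0, and a count of 0 was given a floor of 3 UMIs. With 1 sample per group there was no test between groups and no p-value. The ratio script was tested on simulated data. edgeR 4.0.16 (TMM) and DESeq2 1.42.0 (median of ratios) served for scaling factors alone, which lay between 0.980 and 1.02. Other tools were Python 3.11.15, numpy 2.4.6, scipy 1.17.1, pandas 2.3.3 and R 4.3.3.

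Named genes were the 6 cDC2 markers, the 10 leading genes of the class (those with a mean of at least 100 CPM), the 8 highest and 8 lowest called log2 ratios of the naive and the knockout comparison, up to 4 called members of each list and direction, and a panel by role, and some of these genes are not reported here. Ly6d, Siglech, Cox6a2 and the haemoglobin genes were described further after their values were seen. The cells named, the markers and the gene lists were chosen with earlier results of these data known. The Inf-cDC2 and ISG-DC lists are signatures that the study took from other data sets. Alternatives changed the cell filter, the class membership, the denominator, the pseudocount, the minimum level, the scaling, the weighting, the depth (cells thinned to 4000 UMIs), the load and the fold, and 4 exclusions of cells (pDC-marked, C1q, Ly6c2 and cycling) were chosen after seeing the data. Promoters were taken from a RefSeq table on GRCm38.p6, with the first listed promoter used where a gene has several.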

Additional observations from a re-analysis of the deposited data

Results flagged for a closer look

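In 2 genes named above the naive comparison went opposite ways in cDC2s and in macrophages of the same tumours, by at least 2-fold in each. Fcgrt, the neonatal Fc receptor that spares antibody from breakdown and takes part in antigen delivery, stood at 173 CPM in NTT and 81.3 in RTT in cDC2s, a log2 ratio of 1.09. In macrophages it stood at 84.1 CPM in NTT and 181 in RTT, or -1.11. S100a8, a calcium-binding protein of neutrophils and monocytes, stood at 50.7 CPM in NTT and 242 in RTT in cDC2s, a log2 ratio of -2.25. In macrophages the same gene stood at 184 CPM in NTT and 85.0 in RTT, or 1.11. With 1 sample per group the difference between the classes was not tested for either gene.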

How the results depend on the processing

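No paired analysis was possible because the labels give a single sample to every group, and no replicate could be left out. In the Inf-cDC2 list, 14 to 17 of 20 genes were called higher in the naive and 16 to 17 in the knockout comparison over all 20 alternatives. For MHC class I these ranges were 7 to 18 and 14 to 18 of 22. Over all alternatives, 6489 values of single genes stayed near the reported one, 1309 moved and 19 turned. Of the 208 calls of named genes, 206 were kept under TMM and under DESeq2 scaling and 190 after thinning. Load 1 kept 170 of the 206 that could be compared, load 2 kept 182 of 206 and load 3 kept 182 of 208. Without Ly6c2 cells 180 of 204 were kept and without cycling cells 173 of 205. Of the list counts 342 moved and 2298 stayed near, and of the list medians 160 moved, 2 turned and 1164 stayed near. Of the counts over all genes 89 stayed near and 31 moved, and of the shares 63 stayed near, 25 moved and 3 turned. TMM or DESeq2 scaling reversed no value. Wherever a value moved below, the cause was not tested, unless the exclusion itself removes the cells concerned.

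The share of cDC2s depended on who was counted. With any cell of at least 4 markers, the shares were 2.21% (NTT), 1.14% (RTT), 2.15% (RTT_ROSA26) and 2.70% (RTT_PTGS12KO), the naive log2 ratio was 0.96 and the knockout ratio turned to 0.33. Over dendritic cells only, in that order, the shares were 70.0%, 90.2%, 92.3% and 74.5%, the naive ratio turned to -0.37 and the yardstick was 0.03. Load 3 alone gave -0.10 for the knockout. The exclusions that follow took out cDC2s alone and kept all cells of other classes. Without cDC2s of 10 or more C1q UMIs the shares were 2.93%, 1.66%, 3.41% and 2.67%. Without cDC2s with a Ly6c2 UMI they were 0.845%, 1.75%, 3.66% and 2.08%, the naive ratio turned to -1.05 and the knockout ratio was -0.82. Without cycling cDC2s RTT was at 1.42%, RTT_ROSA26 at 3.75% and RTT_PTGS12KO at 2.92%, the naive ratio was 1.21 and the yardstick 1.40.

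Counts of called genes rose with looser limits. The reported counts of genes higher and lower were 196 and 179 (naive), 222 and 70 (knockout) and 14 and 132 (yardstick). With a mean of at least 10 CPM they were 319 and 414, 336 and 185, and 42 and 255. With no minimum they were 513 and 854, 534 and 519, and 147 and 519. At 1.5-fold they were 449 and 433, 383 and 302, and 85 and 281, with 18 genes of MHC class I higher in the naive comparison. With 10 added to each CPM, 38 genes were lower in the knockout and 8 higher in the yardstick. Thinned to 4000 UMIs, 36 genes were higher in the yardstick and 9 cell cycle genes lower in NTT. Single loads hold fewer cells. Load 1 called 7 genes of MHC class I higher and 8 cell cycle genes lower in NTT, 110 genes lower in the knockout and 60 higher in the yardstick. Load 2 called 336 genes lower in NTT, 123 lower in the knockout and 39 higher in the yardstick. Load 3 called 119 lower in the knockout and 61 higher in the yardstick. Without Ly6c2 cells 291 genes were lower in NTT. The yardstick had 23 genes higher without the C1q cells and 23 without cycling cells.

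Some directions turned. In load 1 the naive ratio of Cxcl9 was -0.03, and the yardstick was 0.76 for Nusap1 and 0.02 for Hsph1. In load 2 the naive ratio of Pf4 was 1.24, the knockout ratio of Hbb-bs -0.28, and the yardstick 1.49 for Cxcl9, 1.93 for Ifit1 and 1.16 for Ifit3. In load 3 the naive ratio of Cd209a was -0.38 and the yardstick of Ccl17 was 0.06. Without cycling cells, those with at least 5 UMIs of cycle genes, 0 cell cycle genes were lower in NTT, and the list's median was 0.17 in the naive comparison and 0.11 in the yardstick. Ube2c was then at 0.08 and 0.35, Ccnb2 at 0.08 and 0.03, Cdca3 at 0.08 and 0.03 and Mki67 at 1.78 and 1.83, and the naive ratio of Top2a was 0.25. None of these was called. RTT, with 174 cDC2s, sets the precision of the naive comparison and of the yardstick.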

Other observations

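A published split of cDC2s into a branch that expresses T-bet (cDC2A) and one that lacks it (cDC2B) was looked at with 8 and 10 genes. Of the cDC2A genes 1 passed the minimum, the orphan receptor Nr4a2, at a naive log2 ratio of -0.82, which was not called. Over all genes tested, 4.82% were called higher and 4.40% lower in the naive, 5.46% and 1.72% in the knockout and 0.344% and 3.24% in the yardstick comparison, and the counts that follow stand beside these shares. Of the 10 cDC2B genes 8 passed. In NTT against RTT 2 were higher (Clec10a and Cd209a) and 1 lower (Cx3cr1), in the knockout 0 were called, and in the yardstick Clec10a and Cd209a were again higher. The medians of the naive, knockout and yardstick comparisons were 0.41, -0.49 and 0.50. Of 6 measured chemokine receptors, Ccr7 was higher and Cx3cr1 lower in NTT (background 4.82% and 4.40%), and none was called in the knockout (background 5.46% and 1.72%). Of 7 measured cytokines and their inhibitors 1 was called, Il18bp, a secreted inhibitor of interleukin-18, at 1.94 in the naive, 3.33 in the knockout and -1.93 in the yardstick comparison. Il1b stood at -0.52 and 0.13 in the naive and knockout comparisons. Of 6 measured Fc receptors, 2 were higher and 1 lower in NTT (background 4.82% and 4.40%), and 2 were higher in the knockout (background 5.46%).

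Marker lists of other cells were mostly low in the cDC2s. The 6 cDC1 markers summed to 95.1 CPM in NTT and 68.1 in RTT, and 84.0 in RTT_PTGS12KO and 59.8 in RTT_ROSA26. The 7 markers of CCR7+ DCs summed to 139 CPM in NTT and 61.1 in RTT, and 81.8 in RTT_PTGS12KO and 69.3 in RTT_ROSA26. The 5 pDC markers summed to 223 CPM in NTT and 49.8 in RTT, and 72.9 in RTT_PTGS12KO and 93.4 in RTT_ROSA26, so NTT was highest. The 6 neutrophil markers summed to 153 CPM in NTT and 613 in RTT, and 232 in RTT_PTGS12KO and 152 in RTT_ROSA26, and S100a8 and S100a9 were called lower in NTT than in RTT. The 5 B cell markers summed to 58.4 CPM in NTT and 14.6 in RTT, and 35.7 in RTT_PTGS12KO and 28.1 in RTT_ROSA26, where Ighm, the one measured, was called higher in NTT at 2.05 and in the yardstick at 1.02. Markers of Langerhans, mast and fibroblast cells each summed to at most 29.5 CPM. The part of these cells in the results above was not tested.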
